A study of Mus musculus with 2 samples.

Results

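*Aqp1*, *Aqp3*, *Aqp4* and *Aqp5* are 4 aquaporin genes of the mouse, chosen by name, and they are 4 of the 32285 genes counted in single cells of the vomeronasal organ (VNO). The VNO is a paired tube in the nasal septum in which vomeronasal sensory neurons (VSNs) detect pheromones, and it holds basal stem cells, sustentacular (supporting) cells, glands, vessels and a non-sensory epithelium around the same lumen. Cells came from whole VNOs of wild-type C57BL/6J males at postnatal day 60 (P60). The tissue of 5 VNOs was dissociated with papain, frozen and thawed, and gave 2 droplet-based libraries, and no treatment or genotype was compared. The sources do not say how the VNOs were divided between the libraries. The spread between libraries may therefore be technical.

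Aquaporins are tetrameric membrane channels through which water follows osmotic gradients across epithelia and vessel walls. AQP1, AQP4 and AQP5 pass water, and AQP3 is an aquaglyceroporin that also passes glycerol. In other tissues AQP1 is abundant in capillary endothelium, AQP5 in the apical membrane of secretory gland cells, AQP3 in the basal layers of stratified epithelia, and AQP4 in astrocytes and in the basolateral membrane of several epithelia.

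Each captured mRNA carries a random barcode of its own, the unique molecular identifier (UMI), and counts are numbers of such molecules. The libraries held 12814 and 11270 barcodes, and 10592 cells with at most 5% mitochondrial UMIs and between 200 and 9000 genes were kept, 5694 in library 1 and 4898 in library 2, with medians of 6668 and 6650 UMIs. Only 33 barcode sequences were shared between the libraries, 3 of them among kept cells. Cells were clustered without any aquaporin gene among the variable genes, and a cluster was called "X-like" where at least 3 markers of a cell type were raised 4-fold or more over all other cells. Basal-like cells raised 5 of 5 markers (*Krt5*, *Krt14*, *Trp63*, *Krt15*, *Krt17*), non-sensory epithelial-like cells 4 of 5, gland-like cells all 5 of the listed markers that are among the genes counted, endothelial-like cells 9 of 9, and sustentacular-like cells 3 of 6 (*Fezf2*, *Cyp2a5*, *Sox2*). Other groups are called by their leading genes (*Krt13*-led, *Cytl1*-led, *Neurod1*-led, *Vmn2r*-led, *Nkg7*-led). The marker rule alone did not set all of these apart. *Krt13*-led cells raised 4 basal markers, and *Cytl1*-led cells 6 fibroblast and 3 smooth muscle markers. *Neurod1*-led cells raised 3 immature neuron markers, and *Nkg7*-led cells 5 T cell and 4 natural killer cell markers. *Vmn2r*-led cells raised 3 markers of no list and are called neurons from their leading receptor genes alone. All of these gene-led cells were kept as groups of their own. Clusters 4, 14, 15 and 20, with 1379 cells, are left unnamed. Of the 226 cells of cluster 20, 221 came from library 1, so no level is drawn from it. A level is the number of UMIs of a gene per 1000000 UMIs (CPM) of all cells of a group in a library, given as library 1 and library 2. Shares of cells are also given after thinning, in which each cell was drawn down at random to 3000 UMIs and shallower cells were left out.

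*Aqp1* (ENSMUSG00000004655) lies on chromosome 6 of mm10 from 55336432 to 55348555 on the plus strand, *Aqp3* (ENSMUSG00000028435) on chromosome 4 from 41092722 to 41098183 on the minus strand, and *Aqp5* (ENSMUSG00000044217) on chromosome 15 from 99590782 to 99594829 on the plus strand. The 250 bases before the RefSeq start sites of *Aqp1* and *Aqp3* (GRCm38.p6, the build of the files) are shown because these genes had their highest levels in separate cell lineages, vessels and keratin-rich epithelium. RefSeq places the start of *Aqp1* before the gene start given above, which is from GENCODE. Capitals mark matches to TATAAA or to GGGCGG on either strand, and each sequence is read 5′ to 3′ on the strand of the gene.
*Aqp1*, chr6:55336049-55336298, plus strand: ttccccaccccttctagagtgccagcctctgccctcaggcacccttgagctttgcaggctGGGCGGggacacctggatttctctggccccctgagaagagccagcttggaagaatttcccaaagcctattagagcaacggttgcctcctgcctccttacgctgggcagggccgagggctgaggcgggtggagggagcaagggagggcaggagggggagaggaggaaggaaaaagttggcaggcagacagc
*Aqp3*, chr4:41098184-41098433, minus strand: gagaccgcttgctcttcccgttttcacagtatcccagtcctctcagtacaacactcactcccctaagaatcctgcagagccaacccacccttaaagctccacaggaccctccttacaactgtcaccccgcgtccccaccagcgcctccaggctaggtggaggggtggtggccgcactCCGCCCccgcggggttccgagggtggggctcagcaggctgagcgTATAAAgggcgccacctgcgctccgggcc
The *Aqp3* window holds TATAAA starting 29 bases before the start site and a GGGCGG on the other strand starting 73 bases before it. The *Aqp1* window holds a GGGCGG starting 190 bases before the start site, and TATAAA is not in its letters. Over 32851 windows of the same length, 12.4% held TATAAA and 32.7% held GGGCGG. A match describes letters and is not evidence of a bound factor.

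*Aqp1* was highest in endothelial cells and in 2 stromal groups. In the 743 endothelial-like cells its level was 1565 and 1728 CPM, and 82.0% of cells held a UMI (exact 95% interval 79.0 to 84.7%; intervals cover counting error only). These cells carried 70.9% of all *Aqp1* UMIs. The 175 *Cytl1*-led cells, which raised fibroblast markers together with *Tagln* and *Acta2* of smooth muscle, came next with 1270 and 1489 CPM in 88.0% of cells, and the ranges of the libraries did not overlap with those of endothelial-like cells. The 36 lymphatic endothelial-like cells had 1323 CPM in library 1 (12 cells) and 488 CPM in library 2 (24 cells), a range that overlapped with that of the *Cytl1*-led cells. Fibroblast-like cells, which likewise raised 4 smooth muscle markers beside 6 of fibroblasts, had 267 and 224 CPM, in 50.1% of 381 cells. At resolution 0.5, where no separate *Cytl1*-led group was formed, the fibroblast-like class (556 cells) had 643 and 677 CPM. No other named class was above 16.9 CPM in either library. In macrophage-like cells, which stand here for the signal that free RNA gives, 1.19% held an *Aqp1* UMI at a median of 4512 UMIs per cell, against a median of 5445 in endothelial-like cells. The shares in basal-like (1.51%), non-sensory epithelial-like (1.42%), sustentacular-like (2.13%) and olfactory ensheathing-like cells (2.70%) had intervals that included that background share, and in gland-like cells, at a median of 18316 UMIs, the share was 2.42% (1.22 to 4.29%) and 0.295% after thinning.

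Endothelial-like cells were not uniform in *Aqp1*. They formed 2 clusters, and the cluster led by *Ly6c1*, *Cldn5* and *Sox17* (392 cells) had 2533 and 2924 CPM, whereas the cluster with the venular adhesion genes *Selp* and *Sele* among its leaders (351 cells) had 714 and 811 CPM. The libraries of the clusters did not overlap. The former held a UMI in 92.1% of cells and the latter in 70.7%, although the latter was sequenced more deeply (median 6405 against 4674.5 UMIs). After thinning, with 95 and 58 shallower cells left out, the shares were 95.3% and 62.1%. Both clusters raised all 9 endothelial markers, and no test was made, since the clusters were chosen after their values were seen.

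**Figure D1:**
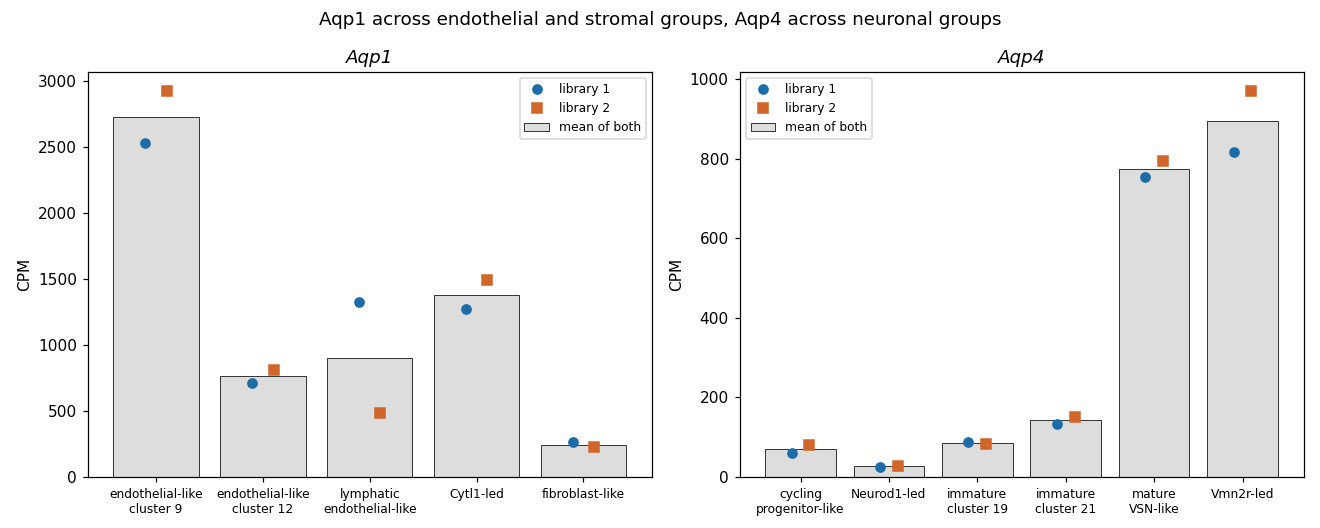
Level in CPM (linear axis) of *Aqp1* across endothelial and stromal groups (left) and of *Aqp4* across neuronal groups (right). Points are the 2 libraries and bars their mean. *Aqp1* is highest in endothelial-like cluster 9 (2533 and 2924 CPM), and *Aqp4* is highest in *Vmn2r*-led and mature VSN-like neurons.

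*Aqp5* marked gland-like cells together with the keratin-rich epithelium. Gland-like cells, which produce lipocalins and odorant-binding proteins of the luminal fluid, had 748 and 731 CPM, and 84.1% of 454 cells held a UMI, with a median of 16 *Aqp5* UMIs per positive cell. Basal-like cells had 1342 and 1100 CPM in 89.6% of 1057 cells, and non-sensory epithelial-like cells 815 and 755 CPM in 92.1% of 777 cells. *Krt13*-led cells, which share 4 of the 5 basal markers, had 542 and 346 CPM in 80.1% of 261 cells. On the CPM scale the order was basal-like, non-sensory epithelial-like, gland-like and *Krt13*-led, with no overlap of libraries between neighbours. The order depended on the clustering and on the scale. Non-sensory epithelial-like cells had 674 and 645 CPM at resolution 0.5, below 746 and 727 CPM in gland-like cells. At the 10% mitochondrial limit they had 535 and 517 CPM, below 665 and 652 CPM in gland-like cells, and *Krt13*-led cells had 684 and 527 CPM. CPM is a share of all UMIs, and the 10 highest genes of gland-like cells, led by *Wfdc18*, *Obp2a* and *Lcn3*, took 59.4% and 57.3% of them, whereas the 10 highest genes of each of the other 4 classes compared took between 8.70% and 11.8%. After thinning, 81.1% of gland-like cells, 79.9% of basal-like cells, 70.7% of non-sensory epithelial-like cells and 50.6% of *Krt13*-led cells held an *Aqp5* UMI, with 115 gland-like and 29 basal-like cells left out as too shallow.

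In sustentacular-like cells *Aqp5* was low. The level was 4.38 and 27.5 CPM, and 80.0% of their 55 UMIs sat in 5 of 282 cells. A UMI was found in 5.67% of them, and in 2.55% (1.03 to 5.19%) after thinning, beside 1.43% in thinned macrophage-like cells. Mature VSN-like cells had 2.80 and 4.11 CPM and macrophage-like cells 5.62 and 9.49 CPM, with a UMI in 2.13% of macrophage-like cells. In fibroblast-like cells (86.3 and 62.4 CPM), 3.41% of cells held *Aqp5*, with a median of 15 UMIs per positive cell, and 5 cells held 74.1% of the UMIs (57.2 and 31.9 CPM without doublets). In olfactory ensheathing-like cells, 1 cell held 37 of 38 *Aqp5* UMIs. In sustentacular-like, fibroblast-like and olfactory ensheathing-like cells the level thus rested on few cells with many UMIs.

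*Aqp3* was highest in keratin-rich epithelial cells. Its level was 1071 and 1160 CPM in *Krt13*-led cells, 914 and 1149 CPM in basal-like cells and 798 and 969 CPM in non-sensory epithelial-like cells. The library ranges of neighbours in this order overlapped. A UMI was found in 98.5%, 96.2% and 97.4% of these cells, and in 92.6%, 89.0% and 85.4% after thinning. Among named groups, cycling progenitor-like cells followed with 166 and 305 CPM in 32.7% of 162 cells, and ciliated-like cells had 276 and 169 CPM at a median of only 1023 UMIs per cell. The ciliated-like value depended on which cells were clustered together, with 7.97 and 0 CPM at resolution 0.5 (34 cells) and 11.01 and 63.9 CPM at the 10% mitochondrial limit (105 cells). Gland-like cells, in contrast to their *Aqp5*, had 3.34 and 12.2 CPM of *Aqp3* in 4.63% of cells, sustentacular-like cells 14.8 and 26.96 CPM in 8.51%, and endothelial-like cells 18.2 and 16.6 CPM in 3.23% (15.4 and 6.48 CPM without doublets). The background share in macrophage-like cells was 1.13%. Thinning gave 2.06%, 3.28% and 2.03% for the gland-like, sustentacular-like and endothelial-like classes and 0.981% for macrophage-like cells.

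T cell-like cells, led by *Trdc* and *Il17a* of gamma delta T cells, carried *Aqp3* at 84.0 and 89.5 CPM. A UMI was present in 22.2% of 275 cells (17.4 to 27.6%) and in 21.5% and 23.02% of the cells of the libraries. The 75 UMIs were spread over 61 cells, with 18.7% in the 5 highest cells, and the thinned share was 19.1% of the 136 cells deep enough, against 1.13% with all UMIs and 0.981% thinned in macrophage-like cells. For *Aqp5* the same cells had 4 positive cells (1.45%), and for *Aqp4* 6 (2.18%). Dendritic-like cells had 50.7 and 106 CPM of *Aqp3*, but 33.8% of those UMIs sat in 5 of 365 cells, and with the doublets marked by Scrublet left out the level was 4.30 and 5.81 CPM in 3.24% of 340 cells.

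*Aqp4* was the only one of the 4 genes with its highest levels in neurons, among the cell groups compared. *Vmn2r*-led neurons, with genes of the V2R receptor family and *H2-M10* genes at the top, had 817 and 970 CPM, and mature VSN-like cells, led by *Vmn1r* receptors, had 754 and 795 CPM. All 109 *Vmn2r*-led cells and 592 of 594 mature VSN-like cells held a UMI, at medians of 17162 and 13507.5 UMIs per cell, and after thinning 92.6% and 88.8% did. In macrophage-like cells the share was 1.66%. Along the lineage, the level was 59.8 and 79.8 CPM in cycling progenitor-like cells, 25.98 and 28.1 CPM in *Neurod1*-led cells, 109 and 112 CPM in immature neuron-like cells, and the mature groups stood above these. The cycling class was mixed: its cells with an *Aqp3* UMI had 151 and 128 CPM of *Aqp4*, and its cells without one had 23.7 and 36.8 CPM, a range that overlapped with that of *Neurod1*-led cells. From *Neurod1*-led cells onward the libraries of the groups did not overlap. Among immature neuron-like cells the *Tfap2e*-led cluster (225 cells) had 134 and 152 CPM and the *Tex15*-led cluster (235 cells) 88.8 and 83.3 CPM. The share of cells with an *Aqp4* UMI was not higher in the *Tfap2e*-led cluster, at 41.3% against 44.7% in the *Tex15*-led cluster. After thinning, which left out 59 and 3 cells, the shares were 26.5% and 23.7%, with overlapping intervals. Scrublet marked 19 doublets in the *Tfap2e*-led cluster and 6 in the *Tex15*-led cluster. *Aqp4* (ENSMUSG00000024411) lies on chromosome 18 of mm10 from 15389496 to 15410982 on the minus strand, and an annotated antisense gene (15403087 to 15430790, plus strand) overlaps it. The antisense gene held 335 UMIs in kept cells against 18206 for *Aqp4*, with 58 and 48 against 3502 and 2706 in mature VSN-like cells. The use of strand in the counting is not given, so reads of the pair may be mixed. Unnamed cluster 14, with both receptor families among its leaders and a median of 27734 UMIs per cell, had 409 and 495 CPM. It carried 23.3% of all *Aqp4* UMIs. Like the *Vmn2r*-led cells it raised 3 markers of no list, and its identity is open. Its leaders *Meg3*, *Ppic* and *Rian* were also leaders of sustentacular-like cells.

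In epithelium *Aqp4* was graded. Ciliated-like cells, which raised 5 ciliated and also 4 non-sensory epithelial markers, had 653 and 688 CPM in 29.5% of 146 cells. Their median was 1023 UMIs per cell, and 48.1% of their *Aqp4* UMIs sat in 5 cells. The share was 71.4% of the 21 cells deep enough for thinning, 73.5% of 34 ciliated-like cells at resolution 0.5 and 82.9% of 105 at the 10% mitochondrial limit. Non-sensory epithelial-like cells had 254 and 261 CPM in 81.7% of cells, *Krt13*-led cells 224 and 229 CPM, basal-like cells 104 and 102 CPM in 48.2%, and sustentacular-like cells 72.9 and 72.7 CPM in 51.4%. The libraries of neighbours in this series did not overlap. Gland-like cells had 5.81 and 10.9 CPM in 7.49% of cells and endothelial-like cells 7.53 and 11.2 CPM in 4.31%. Thinned shares were 47.6%, 44.7%, 24.1%, 22.6%, 2.06% and 2.03% in the order non-sensory epithelial-like, *Krt13*-led, basal-like, sustentacular-like, gland-like and endothelial-like. In macrophage-like cells the thinned share was 1.07%. In sustentacular-like cells *Aqp4* was the only member found in 44.3% of cells.

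**Figure D2:**
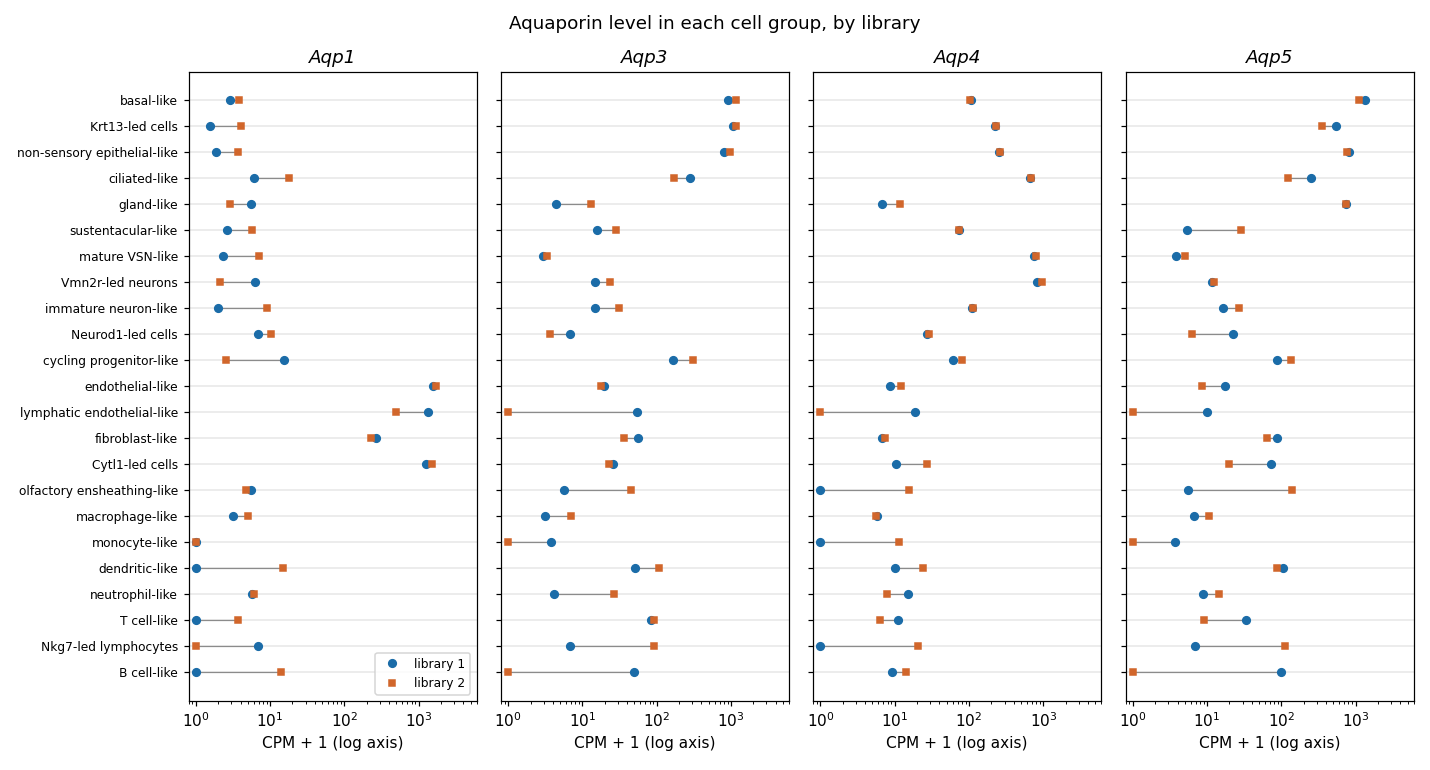
Level of each aquaporin (CPM + 1, log axis) in each named or gene-led cell group, with a point for each of the 2 libraries joined by a line. *Aqp1* stands at 1565 and 1728 CPM in endothelial-like cells, *Aqp3* and *Aqp5* in the keratin-rich epithelial groups, *Aqp5* also in gland-like cells, and *Aqp4* in neurons.

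The 5 classes basal-like, gland-like, sustentacular-like, endothelial-like and non-sensory epithelial-like were compared in pairs with edgeR's quasi-likelihood test on UMIs summed per library and class, in 1 fit with 16 classes. P-values were adjusted by Benjamini-Hochberg over 17780 genes, and folds are log2 differences of the class named first minus the second, with their SE, on TMM-scaled sums (n = 2 libraries per class). The aquaporins did not enter the clustering, but genes that vary with them did, and the share of all genes that passed is given beside each count of members. Library totals in place of TMM moved the median fold of all genes by 0.88 for basal-like against gland-like cells, and by -0.87, -1.15 and -1.21 for gland-like against non-sensory epithelial-like, endothelial-like and sustentacular-like cells. Of the 40 contrasts of the 4 genes, 26 passed an adjusted p of 0.05. All 4 genes passed in basal-like against endothelial-like cells, where 36.3% of genes did, and all 4 in endothelial-like against non-sensory epithelial-like cells (37.7%). Of the 4, 3 passed in basal-like against sustentacular-like (30.3%), in gland-like against endothelial-like (40.7%) and in sustentacular-like against non-sensory epithelial-like cells (26.9%). Of the 4, 2 passed in basal-like against gland-like (34.9%), gland-like against non-sensory epithelial-like (31.5%), gland-like against sustentacular-like (30.5%) and sustentacular-like against endothelial-like cells (37.8%). In basal-like against non-sensory epithelial-like cells, the closest pair with 5.84% of genes called, only *Aqp4* passed.

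*Aqp1* differed between endothelial-like cells and each other class, with folds of -9.16 ± 0.47 for basal-like (adjusted p = 6.4e-18), -7.76 ± 0.43 for gland-like (5.37e-17) and -9.08 ± 0.50 for sustentacular-like cells (3.25e-17) against endothelial-like cells, and 9.57 ± 0.48 for endothelial-like against non-sensory epithelial-like cells (3.93e-18). Among the 4 epithelial classes no *Aqp1* contrast passed. Those classes held 20, 35, 11 and 15 *Aqp1* UMIs in all (basal-like, gland-like, sustentacular-like and non-sensory epithelial-like), and 1 gland-like cell held 23 of the 35. With the library number as a block, the gland-like class passed against basal-like (-1.41, adjusted p = 0.0482) and against non-sensory epithelial-like cells (1.81, adjusted p = 0.0162), at a level of 4.58 and 1.93 CPM beside 2.14 and 4.07 CPM in macrophage-like cells. These contrasts also passed without the filter on low counts and with cells of up to 10% mitochondrial UMIs.

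*Aqp5* was higher in basal-like, gland-like and non-sensory epithelial-like cells than in sustentacular-like cells, with folds of 6.62 ± 0.45 (adjusted p = 1.36e-14) and 6.78 ± 0.45 (9.23e-15) for basal-like and gland-like against sustentacular-like cells, and -5.99 ± 0.44 (1.86e-13) for sustentacular-like against non-sensory epithelial-like cells. Against endothelial-like cells the folds were 6.96 ± 0.45 for basal-like (1.88e-15) and 7.11 ± 0.45 for gland-like cells (1.02e-15), and -6.32 ± 0.44 for endothelial-like against non-sensory epithelial-like cells (1.46e-14). Among its 3 high classes no contrast passed: -0.16 ± 0.31 for basal-like against gland-like (adjusted p = 0.766), 0.63 ± 0.32 for basal-like against non-sensory epithelial-like (0.346) and 0.79 ± 0.32 for gland-like against non-sensory epithelial-like cells (0.0543). With the library block the last 2 passed, at 0.63 (adjusted p = 0.00247) and 0.79 (2.06e-05). Scaling by library totals in place of TMM turned basal-like against gland-like to 0.72 (adjusted p = 0.0509) and gland-like against non-sensory epithelial-like to -0.09 (0.889), so no order of these 3 classes was drawn.

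*Aqp3* separated basal-like and non-sensory epithelial-like cells from the other 3 classes. The folds for basal-like cells were 6.22 ± 0.40 against gland-like (adjusted p = 2.47e-15), 5.97 ± 0.40 against sustentacular-like (7.33e-15) and 6.15 ± 0.39 against endothelial-like cells (1.22e-15). Against non-sensory epithelial-like cells they were -6.00 ± 0.39 for gland-like (7.33e-15), -5.75 ± 0.39 for sustentacular-like (2.59e-14) and -5.93 ± 0.39 for endothelial-like cells (2.34e-15). Basal-like against non-sensory epithelial-like cells gave 0.21 ± 0.29 (adjusted p = 0.852). Contrasts among gland-like, sustentacular-like and endothelial-like cells lay between -0.25 and 0.18 and did not pass, though with library totals gland-like cells passed against endothelial-like (-1.21, adjusted p = 0.0374) and sustentacular-like cells (-1.46, 0.0176).

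*Aqp4* passed in all 10 contrasts. Basal-like cells were lower than non-sensory epithelial-like cells (-1.33 ± 0.19, adjusted p = 3.5e-06) and higher than gland-like (2.76 ± 0.24, 5.83e-12), sustentacular-like (0.83 ± 0.21, 0.00158) and endothelial-like cells (3.71 ± 0.26, 1.42e-14). Sustentacular-like cells were lower than non-sensory epithelial-like cells (-2.17 ± 0.20, 7.23e-11) and higher than endothelial-like cells (2.87 ± 0.27, 4.89e-11), and gland-like cells were lower than non-sensory epithelial-like cells (-4.09 ± 0.24, 2.6e-16). Endothelial-like against non-sensory epithelial-like cells gave -5.04 ± 0.25 (2.12e-18). Some contrasts depended on the setting. Gland-like against endothelial-like cells (0.95 ± 0.32, adjusted p = 0.0157) turned to -0.20 (0.656) with library totals, basal-like against sustentacular-like cells went to 0.50 (0.0714) with them, and gland-like against sustentacular-like cells (-1.93 ± 0.25, 1.16e-07) went to -0.06 (0.821) when cells with up to 10% mitochondrial UMIs were added.

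**Figure D3:**
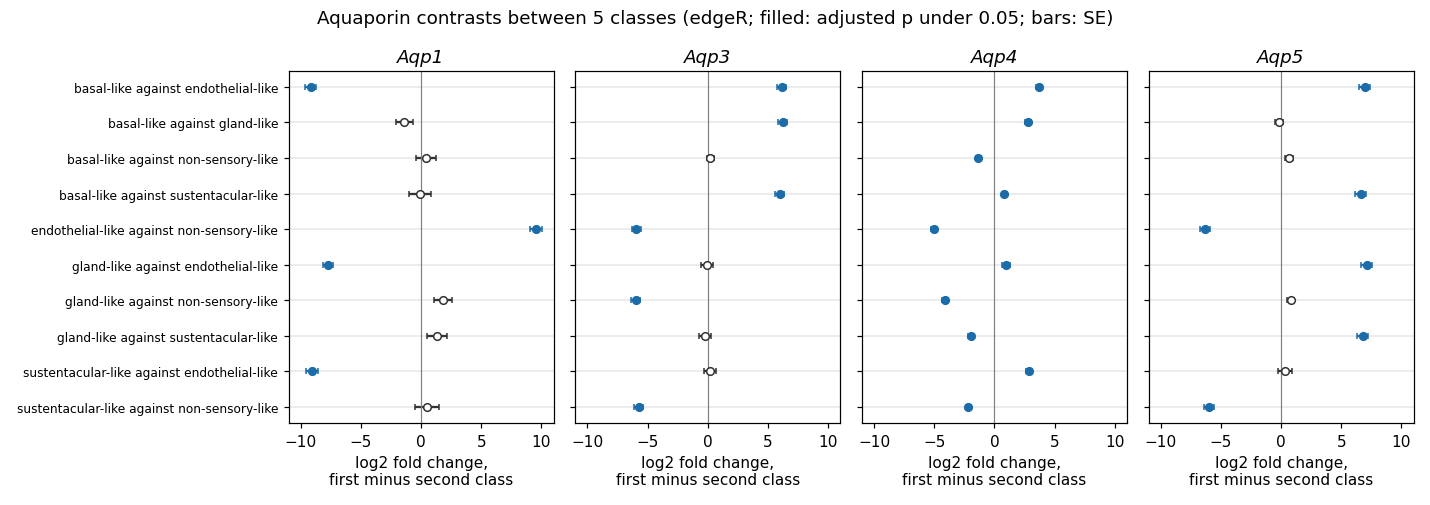
Log2 fold change of each aquaporin in the 10 contrasts between 5 classes (first class minus second; points are edgeR estimates, bars SE, filled points adjusted p under 0.05). *Aqp4* passes in all 10, *Aqp1* in the 4 that involve endothelial-like cells.

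Several aquaporins were often found in the same cell. UMIs of *Aqp3*, *Aqp4* and *Aqp5* occurred together in 74.1% of non-sensory epithelial-like, 66.3% of *Krt13*-led and 44.7% of basal-like cells, and after thinning in 27.5%, 25.3% and 19.4%. *Aqp3* with *Aqp5* occurred in 87.4% of basal-like and 90.3% of non-sensory epithelial-like cells (72.9% and 59.9% thinned). By contrast, 72.0% of gland-like cells held *Aqp5* alone, 75.8% of endothelial-like cells *Aqp1* alone and 92.9% of mature VSN-like cells *Aqp4* alone. In 94.3% of macrophage-like cells no member was found. Within basal-like cells at 3000 UMIs, *Aqp5* was present in 81.9% of 915 cells with *Aqp3* and in 63.7% of 113 cells without it, and in the libraries the shares were 82.5% against 72.9% and 81.2% against 48.8%. In non-sensory epithelial-like cells the shares were 70.2% and 73.9%. These are descriptions of cells from 2 libraries and carry no test.

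**Figure D4:**
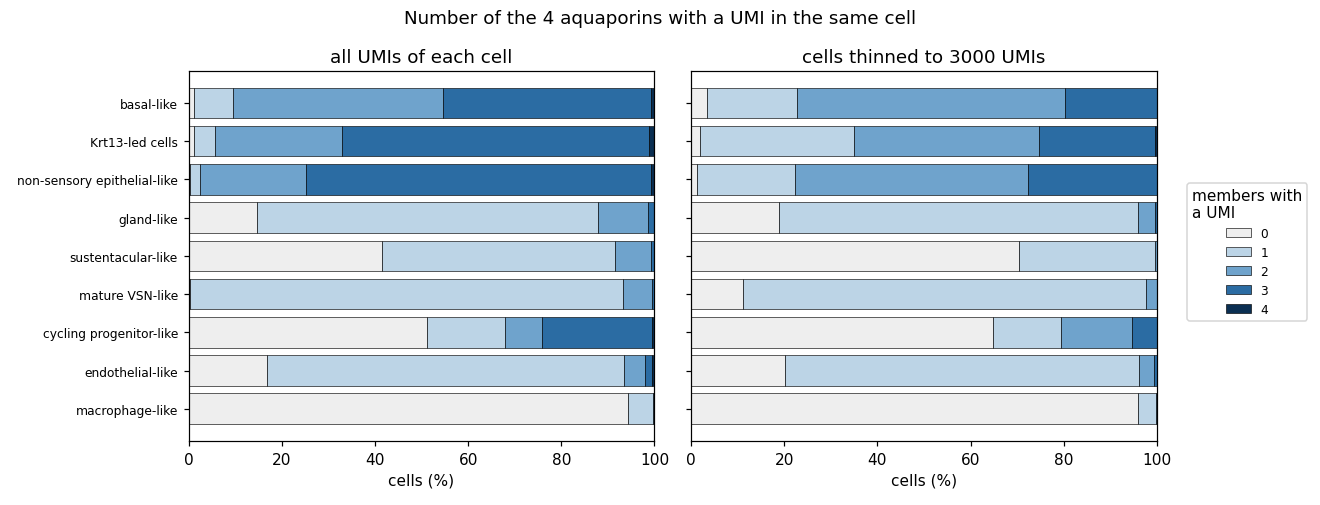
Share of cells of each group (stacked bars, percent) by the number of the 4 aquaporins with a UMI, with all UMIs (left) and after thinning to 3000 UMIs per cell (right). The keratin-rich epithelial groups have mostly 2 or 3 members per cell, gland-like, mature VSN-like and endothelial-like cells mostly 1, and 94.3% of macrophage-like cells (all UMIs) have 0.

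Cycling progenitor-like cells, which were led by genes of cell division such as *Top2a*, differed among themselves in *Aqp3*. At 3000 UMIs, *Aqp5* was present in 26 of 40 cells with *Aqp3* (65.0%) and in 4 of 111 without it (3.60%), with 68.8% against 1.49% in library 1 and 62.5% against 6.82% in library 2. With all UMIs, the 24 and 29 cells of the libraries with an *Aqp3* UMI had 690 and 909 CPM of *Krt5*, the basal keratin, against 14.1 and 17.7 CPM in the 61 and 48 cells without. *Trp63*, a transcription factor of basal cells, was at 62.1 and 98.4 CPM against 0.879 and 1.47 CPM. The neurogenic factor *Neurod1* went the other way, at 37.7 and 26.7 CPM in cells with *Aqp3* against 502.5 and 337 CPM in cells without. The groups of libraries did not overlap for any of these 3 genes. The split was chosen after the values were seen and cells with *Aqp3* were deeper (median 20778.5 against 15837 UMIs among the thinned cells, before thinning).

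**Figure D5:**
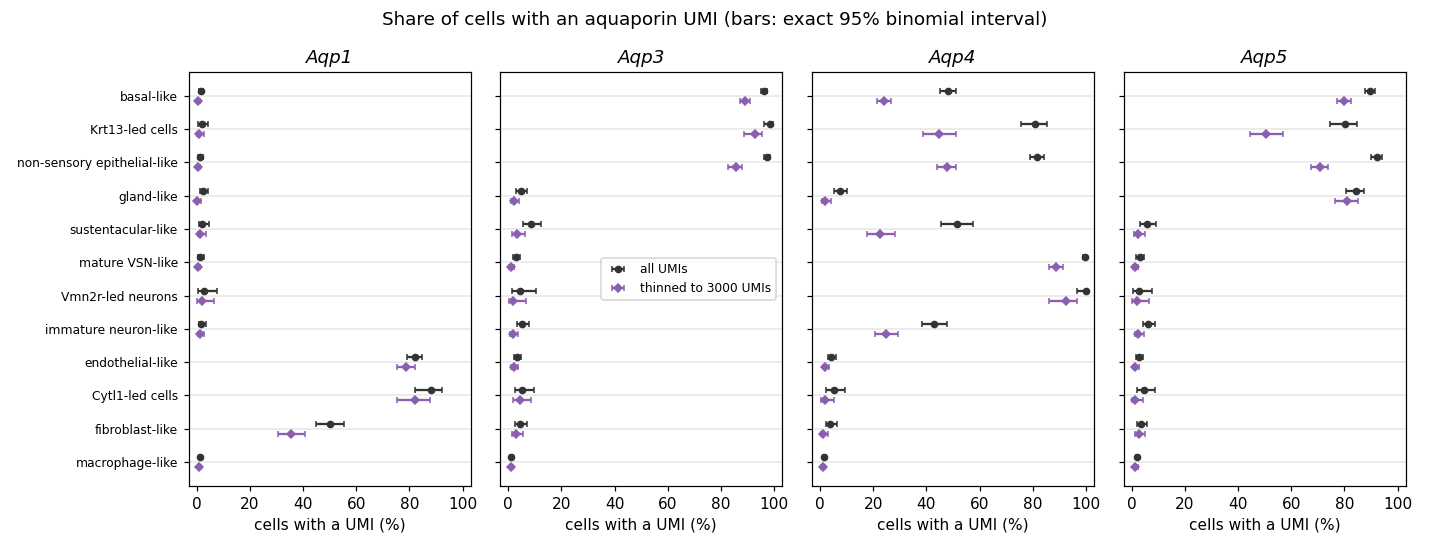
Share of cells with a UMI of each aquaporin in 12 groups, with all UMIs (circles) and after thinning each cell to 3000 UMIs (diamonds), with exact 95% binomial intervals for counting error. The *Aqp5* share of *Krt13*-led cells is 80.1% with all UMIs and 50.6% after thinning.

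The other 8 aquaporin genes counted (*Mip*, *Aqp2*, *Aqp6*, *Aqp7*, *Aqp8*, *Aqp9*, *Aqp11* and *Aqp12*) were scarce. *Aqp11*, an intracellular aquaporin, had 531 UMIs in kept cells, with 32.1 and 28.9 CPM in endothelial-like cells (17.8% of cells), 14.7 and 11.2 CPM in *Vmn2r*-led neurons and 10.96 and 12.3 CPM in sustentacular-like cells. *Aqp9*, a glycerol channel of leukocytes, had 46 UMIs, of which 35 lay in neutrophil-like cells (23.3 and 33.8 CPM). *Aqp2*, which neighbours *Aqp5* on chromosome 15, had 41 UMIs, 18 in gland-like and 11 in fibroblast-like cells. *Aqp6* and *Aqp8* had 1 and 2 UMIs in kept cells, and *Mip*, *Aqp7* and *Aqp12* had 0. A count of 0 puts the upper 95% bound on the expected count near 3 UMIs. Over all barcodes, *Mip*, *Aqp7* and *Aqp12* had 2, 3 and 1 UMIs.

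A list of 41 genes of ion transport, glycerol metabolism, tight junctions and aquaporin anchoring and partners was counted, of which 38 were tested in the same fit, 7 of them in the tight junction group and 7 in the anchoring group. They could enter the clustering, unlike the aquaporins, so their counts describe the classes. In gland-like against endothelial-like cells, where 40.7% of all genes were called, 24 were higher and 5 lower, with a median log2 fold of 2.66 beside 0 over all genes tested (21 and 10, median 1.52, with library totals). In gland-like against sustentacular-like cells (30.5% of all genes called) 17 were higher and 8 lower (median 0.59), but library totals gave 12 and 18 (median -0.47), so the balance of that list depended on the scaling. The same held for gland-like against non-sensory epithelial-like cells (31.5%), with 15 higher and 9 lower by TMM and 9 and 16 by library totals. In basal-like against gland-like cells (34.9%) 8 were higher and 20 lower (14 and 15 with library totals). The smallest number of calls was in basal-like against non-sensory epithelial-like cells, where 5.84% of all genes were called, with 1 higher and 8 lower, 4 of the 8 in the tight junction group.

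Some genes of ion transport differed between gland-like and basal-like cells in the same direction with TMM, library totals and DESeq2. By TMM, 3 of 4 sodium transport genes were higher in basal-like cells and 1 was lower, where 34.9% of all genes were called. Of 10 chloride and bicarbonate transport genes 1 was higher in basal-like cells and 5 lower, and of 6 potassium channel genes 1 and 4. *Ano1*, a calcium-activated chloride channel, was at 43.7 and 45.9 CPM in gland-like cells against 0 and 1.26 CPM in basal-like cells (fold for basal-like minus gland-like -7.02 ± 0.35, adjusted p = 2.24e-17). *Kcnn4*, a calcium-activated potassium channel, was at 55.1 and 53.4 CPM against 0.214 and 1.01 CPM (-7.30 ± 0.39, 7.96e-17). *Slc12a2*, the sodium, potassium and chloride cotransporter, was at 127 and 157 CPM against 22.7 and 29.1 CPM (-3.34 ± 0.19, 6.52e-17). *Cldn10*, a pore-forming claudin, was at 426 and 507 CPM against 3.00 and 1.01 CPM (-8.65 ± 0.32, 4.56e-21). All 4 passed in gland-like cells against endothelial-like and sustentacular-like cells as well. The carbonic anhydrase *Car12*, in contrast, was at 122 and 139 CPM in basal-like cells and 4.05 and 3.43 CPM in gland-like cells (4.21 ± 0.27, 3.37e-15). *Trpv4*, an osmosensitive cation channel, was at 41.97 and 48.3 CPM in basal-like and 2.99 and 2.79 CPM in gland-like cells (3.05 ± 0.27, 1.24e-11).

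For glycerol, which AQP3 passes, the glycerol kinase gene *Gk* was at 29.8 and 41.2 CPM in basal-like and 48.4 and 54.7 CPM in non-sensory epithelial-like cells, 18.8 and 19.1 CPM in gland-like, 6.57 and 3.52 CPM in sustentacular-like and 1.59 and 2.89 CPM in endothelial-like cells. Basal-like cells were higher than endothelial-like (4.19 ± 0.39, adjusted p = 3.37e-11) and sustentacular-like cells (3.11 ± 0.37, 1.36e-08) and gave 0.01 ± 0.24 (adjusted p = 1) against gland-like cells. That last fold changed direction between TMM, library totals and DESeq2, and 1 of the 3 called it. The other 3 glycerol genes tested were all lower in basal-like than in gland-like cells, under each of these scalings. *Gpd1*, a glycerol-3-phosphate dehydrogenase, was at 0 and 0.253 CPM in basal-like against 13.6 and 16.5 CPM in gland-like cells (adjusted p = 3.79e-10). *Gpd1l* was at 6.64 and 7.84 against 17.4 and 19.7 CPM (-2.24 ± 0.25, 1.86e-09), and *Pgp*, a phosphatase that acts on glycerol phosphate, at 26.3 and 27.1 against 86.8 and 95.3 CPM (-2.65 ± 0.16, 7.02e-16).

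The genes with the pattern most like each aquaporin were found by Pearson's r of log2(CPM + 1) over the 16 classes of the fit, and r is a description over classes from the same 2 libraries. For *Aqp1* they were *Tmem204* (0.97), *Lepr* (0.96), *Ecm2* (0.96), *Gkn3* (0.96) and *Kcnt2* (0.96). For *Aqp3* they were *Krt5* (0.97), *Dapl1* (0.96), *Col17a1* (0.95), *Trp63* (0.95) and *Defb1* (0.94). For *Aqp4* they were *Dusp14* (0.96), *Limk2* (0.94), *Fgf9* (0.93), *Gm12059* (0.93) and *Casz1* (0.92), and for *Aqp5* *Kcnj15* (0.96), *Urah* (0.94), *Col25a1* (0.94), *Wnt4* (0.93) and *Ly6d* (0.92). Computed within library 1 and library 2 alone, r for *Krt5* with *Aqp3* was 0.97 and 0.93, and for *Gkn3* with *Aqp1* 0.74 and 0.88. With *Aqp4* it was 0.84 and 0.91 for *Gm12059* and 0.83 and 0.92 for *Casz1*. *Gm12059* held 181 UMIs in kept cells and was at most at 5.02 CPM in these classes, so its r rests on low counts.

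The mitochondrial filter did not weigh on the 4 genes alike. Cells with at most 5% mitochondrial UMIs held 72.2% of all *Aqp1* UMIs, 66.6% of *Aqp5*, 60.6% of *Aqp3* and 39.5% of *Aqp4*, beside 43.8% of the UMIs of all genes. With the limit at 10% and the cells clustered again, the levels were 1611 and 1734 CPM for *Aqp1* in endothelial-like cells, 721 and 758 CPM for *Aqp4* in mature VSN-like cells and 1233 and 1039 CPM for *Aqp5* in basal-like cells. *Aqp4* in gland-like cells was then 40.0 and 42.9 CPM, beside 5.81 and 10.9 CPM at 5%, with 752 in place of 454 cells in the class. In non-sensory epithelial-like cells it was 383 and 379 CPM. The gland-like class then joined clusters of 521 and 231 cells. Of their cells also kept at 5%, 99.0% and 71.2% had been gland-like. The sustentacular-like class grew more, with 1389 in place of 282 cells.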

How the data were processed

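Single-cell RNA of P60 wild-type VNO was counted in 2 libraries. The authors deposited raw UMI counts per gene and barcode, and the submitters' processing notes name Cell Ranger 4, bcl2fastq, Seurat 3.2.3 and mm10. The sources used here do not give whether depth was equalised in merging or strand was used in counting. Total counts per library were 108005626 and 95442231 UMIs.

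The filter left genes in at least 3 barcodes and cells with 200 to 9000 genes, up to 5% of their UMIs mitochondrial, after the filter in the study's methods. The cells were clustered with Seurat 5.3.0 on 1996 variable genes (2000 less aquaporins), with 30 principal components and a resolution of 0.8, which gave 32 clusters and 27 groups, 18 of them named classes. Scrublet marked 68 and 104 doublets (1.19% and 2.12%), which were kept. The clusters and their names were rebuilt here and may differ from those of the study. Replicates are libraries, and within classes they differed by more than counting noise (chi-square per degree of freedom from 1.83 to 10.2). Thinning to 3000 UMIs left out 3006 shallower cells. UMIs were summed per library and class for 16 classes with at least 20 cells in each library. The sums were tested with edgeR 4.0.16 (quasi-likelihood test, TMM, genes with at least 10 UMIs, Benjamini-Hochberg threshold 0.05), and the SE was derived from the fold and its F statistic. P-values measure only the spread between these libraries. The code was tested on simulated data. Alternatives were DESeq2 1.42.0, a library block, library totals (chosen after seeing the data), no filter on low counts, 2-class fits, thinned cells, doublets left out, another resolution, aquaporins in the clustering, a 10% mitochondrial limit and each library left out.

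The members and gene lists were chosen with earlier results of these data known. The text names the 4 members, the other aquaporins counted, and the 5 genes most alike in pattern to each. The genes of the pathway list named with values, the clusters within classes, the *Krt13*-led, *Cytl1*-led and *Vmn2r*-led groups and the split of cycling cells were chosen after their values were seen. The same number marks the same capture, so the numbers pair the classes. Over 120 pairs of classes and 9786 genes, deviations from the class means had a median r of 0.0538 (range -0.0442 to 0.246), with 37 pairs over 0.1.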

Additional observations from a re-analysis of the deposited data

How the results depend on the processing

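Of the 40 contrasts of the 4 genes, DESeq2 kept each in direction and in side of the threshold. With the replicate block, *Aqp1* passed in basal-like against gland-like (-1.41) and gland-like against non-sensory epithelial-like cells (1.81), and *Aqp5* in basal-like (0.63) and gland-like (0.79) against non-sensory epithelial-like cells, and no other call of the members changed. The same 4 contrasts passed with only the 2 classes in the fit (-1.41, 1.80, 0.61 and 0.79) and without a filter on low counts (-1.38, 1.78, 0.63 and 0.76, with *Aqp1* in gland-like against sustentacular-like cells at 1.34). They also passed with a mitochondrial limit of 10% (-2.68, 3.00, 1.10 and 0.86, with *Aqp1* in gland-like against sustentacular-like cells at 2.63). At that limit *Aqp4* in gland-like against sustentacular-like cells lost its call (-0.0625), *Aqp5* turned to 0.24 in basal-like against gland-like and to -0.35 in sustentacular-like against endothelial-like cells, and the *Aqp3* level of *Krt13*-led cells was 952 CPM. Thinned cells turned *Aqp1* (-0.45) and *Aqp3* (0.16) in gland-like against sustentacular-like, *Aqp3* in gland-like against endothelial-like (0.73) and *Aqp5* in basal-like against gland-like cells (0.22). Thinning lost *Aqp4* in basal-like against sustentacular-like (0.48) and gland-like against endothelial-like cells (0.75), and *Aqp5* passed in basal-like against non-sensory epithelial-like cells (0.69). Leaving out doublets turned *Aqp1* in basal-like against sustentacular-like (0.28) and *Aqp3* in gland-like against endothelial-like (0.62) and sustentacular-like cells (0.0899). Library totals turned *Aqp4* in gland-like against endothelial-like (-0.20) and *Aqp5* in basal-like against gland-like (0.72) and gland-like against non-sensory epithelial-like cells (-0.0868). With them *Aqp3* passed in gland-like against endothelial-like (-1.21) and sustentacular-like cells (-1.46), and *Aqp4* in basal-like against sustentacular-like cells did not (0.50). At resolution 0.5 *Aqp1* turned in basal-like against non-sensory epithelial-like cells (-0.23) and *Aqp5* passed in gland-like against non-sensory epithelial-like cells (1.07), which it also did with aquaporins in the clustering (0.80). Without either library, *Aqp1* in basal-like against endothelial-like cells lay between -9.25 and -8.89, *Aqp4* in basal-like against sustentacular-like between 0.80 and 0.82 and in sustentacular-like against non-sensory epithelial-like between -2.19 and -2.10, and *Aqp5* in gland-like against non-sensory epithelial-like cells between 0.79 and 0.80. The causes were not tested.

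Thinned shares were 78.8% for *Aqp1* in endothelial-like, 92.6% for *Aqp3* in *Krt13*-led, 92.6% for *Aqp4* in *Vmn2r*-led and 79.9% for *Aqp5* in basal-like cells, and at least 2 UMIs were found in 73.2% (*Aqp1*, endothelial-like) and 79.9% (*Aqp5*, basal-like).

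Counts of all genes called fell with thinning from 6203 to 2781 (basal-like against gland-like), 5379 to 3080 (basal-like against sustentacular-like), 1038 to 581 (basal-like against non-sensory epithelial-like), 5427 to 2130 (gland-like against sustentacular-like), 7232 to 3753 (gland-like against endothelial-like), 5603 to 2301 (gland-like against non-sensory epithelial-like), 6712 to 4219 (sustentacular-like against endothelial-like), 4776 to 2575 (sustentacular-like against non-sensory epithelial-like) and 6699 to 4453 (endothelial-like against non-sensory epithelial-like). In basal-like against non-sensory epithelial-like cells the replicate block called 1745 and the 10% limit 2952 genes, and library totals called 9552 in gland-like against sustentacular-like cells. The share of calls higher in the first class was 86.1% with library totals against 50.8% with TMM for basal-like against gland-like, 13.9% against 47.8% for gland-like against endothelial-like, 12.7% against 50.01% for gland-like against non-sensory epithelial-like, and 7.998% against 49.4% for gland-like against sustentacular-like cells. It was 34.6% against 49.4% for basal-like against endothelial-like, 29.5% against 49.1% for basal-like against sustentacular-like, 65.7% against 51.0% for endothelial-like against non-sensory epithelial-like and 73.4% against 52.6% for sustentacular-like against non-sensory epithelial-like cells.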
